A study of Rattus norvegicus with 12 samples.

Results

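The let-7 family was followed in small RNA from serum extracellular vesicles (EVs) of rats with an injured Achilles tendon. Its 9 members are the mature 5p miRs rno-let-7a-5p, rno-let-7b-5p, rno-let-7c-5p, rno-let-7d-5p, rno-let-7e-5p, rno-let-7f-5p, rno-let-7g-5p, rno-let-7i-5p and rno-miR-98-5p, written below without prefix and arm. They are the 5p arms that carry the let-7 seed, and make up 9 of the 426 miRs in the count table. Wild-type female Wistar rats aged 12 weeks received a needle puncture of the left Achilles tendon, then daily intraperitoneal rapamycin at 2 mg per kg or a matched volume of vehicle. Serum was taken at day 7, after 5 injections, or at day 21, after 19 injections, with 3 animals per treatment and day and 1 library per animal, labelled as biological replicates. Every animal was injured, so no comparison here is with an uninjured rat. The labels name tendon as the tissue, but the RNA came from the vesicle fraction of serum, eluted from a 70 nm size exclusion column. The authors recognise that such a column by itself may be insufficient to isolate EVs. They could not characterise the preparations fully, so RNA carried outside vesicles may be included. This fraction can hold RNA from any organ and from blood cells. The comparison of treatments asks whether an mTOR inhibitor changed the circulating miRs after tendon injury.

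The seed, bases 2 to 8 of a miR, pairs with messenger RNAs and sets most of what a miR can repress. Members of the let-7 family are known for restraining growth and for holding cells in the differentiated state, with Lin28, Hmga2, Ras genes and Myc among the best studied targets. Maturation of let-7 precursors is blocked by Lin28, and 3p arms are usually discarded while the 5p arm enters Argonaute. Blood cells and platelets are rich in let-7 miRs.

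All 9 members matched a RefSeq mature sequence (GRCr8), printed here 5′ to 3′ because the seed is what the family shares and the remaining bases are what separates the counts of one member from those of another. Capitals mark the seed.
let-7a-5p: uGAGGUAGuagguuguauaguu
let-7b-5p: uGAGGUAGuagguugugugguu
let-7c-5p: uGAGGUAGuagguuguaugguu
let-7d-5p: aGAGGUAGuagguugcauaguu
let-7e-5p: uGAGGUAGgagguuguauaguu
let-7f-5p: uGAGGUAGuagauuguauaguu
let-7g-5p: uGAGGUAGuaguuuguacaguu
let-7i-5p: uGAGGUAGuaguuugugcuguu
miR-98-5p: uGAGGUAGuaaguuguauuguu
Each is 22 bases long, and 14 of the 22 positions hold the same base in all members. These 9 are the mature names in the RefSeq table that have this seed. With positions counted from 1 at the 5′ end, let-7a differs from let-7c by A19G, from let-7e by U9G and from let-7f by G12A. Together with let-7b and let-7c, these are the 4 of 36 pairs of members that are 1 base apart. The authors allowed 1 mismatch when they assigned reads to miRBase, so reads of let-7a, let-7b, let-7c, let-7e and let-7f could be split between close relatives. Reads of 17 bases or more were kept, and those that stop before position 19 hold fewer differences. In such reads let-7a and let-7c (A19G) are identical. Pairs that are 1 base apart there include let-7g and let-7i (A17G, A19U) and let-7a and miR-98 (G11A, A19U). They also include let-7c and miR-98 (G11A, G19U), let-7c and let-7e (U9G, G19A), and let-7c and let-7f (G12A, G19A). The separate counts of all these members are uncertain to that extent.

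Total miR counts ran from 16327 to 51391 in the 10 libraries that the study carried forward. The rest, replicate 2 of rapamycin day 7 and replicate 1 of vehicle day 7, stood apart. They held 5.53 and 12.8 miR counts per count of the calibrator spike-ins, synthetic RNAs spiked at a fixed dose, against 0.686 to 1.58 in the 10. Red cell miRs (miR-451, miR-144, miR-486 and miR-16) took 7.34% and 3.20% of their miR counts, against 10.4% to 18.8% in the 10. The muscle miRs miR-1, miR-133a and miR-206 summed to 1.07% of the counts in vehicle day 7 replicate 1 and to at most 0.198% in the 10. The edgeR and permutation tests are therefore given for the 10 libraries and for all 12, and DESeq2 was run on the 10.

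The family took 2.79% to 7.42% of all miR counts, with overlapping ranges in rapamycin and vehicle animals. In the 10 libraries its mean share was 4.64% ± 1.37 (SD, n = 5) with rapamycin and 5.88% ± 1.12 (SD, n = 5) with vehicle. At day 7 the share with rapamycin was 5.05% and 4.25%, with 4.98% in the library not carried forward. With vehicle at day 7 it was 4.41% and 7.42%, with 5.39% in the library not carried forward. These shares overlapped. At day 21 it was 4.55%, 2.79% and 6.59% with rapamycin and 5.41%, 6.38% and 5.78% with vehicle, so 1 rapamycin library, replicate 3, lay above all vehicle libraries and the others below them. Summed into 1 row, the family stood at -0.42 ± 0.19 (SE) on the log2 scale for rapamycin against vehicle, with day as a block, in the 10 libraries and at -0.36 ± 0.28 (SE) in all 12. Relative to 1000 calibrator counts, the family stood at 49.0 ± 20.2 (SD, n = 5) with rapamycin and 80.8 ± 23.0 (SD, n = 5) with vehicle in the 10. The authors added the spike-ins to extracted RNA. In serum, fewer vesicles, less RNA per vesicle, less RNA carried outside vesicles and lower recovery before that step cannot be told apart by such values.

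**Figure D1:**
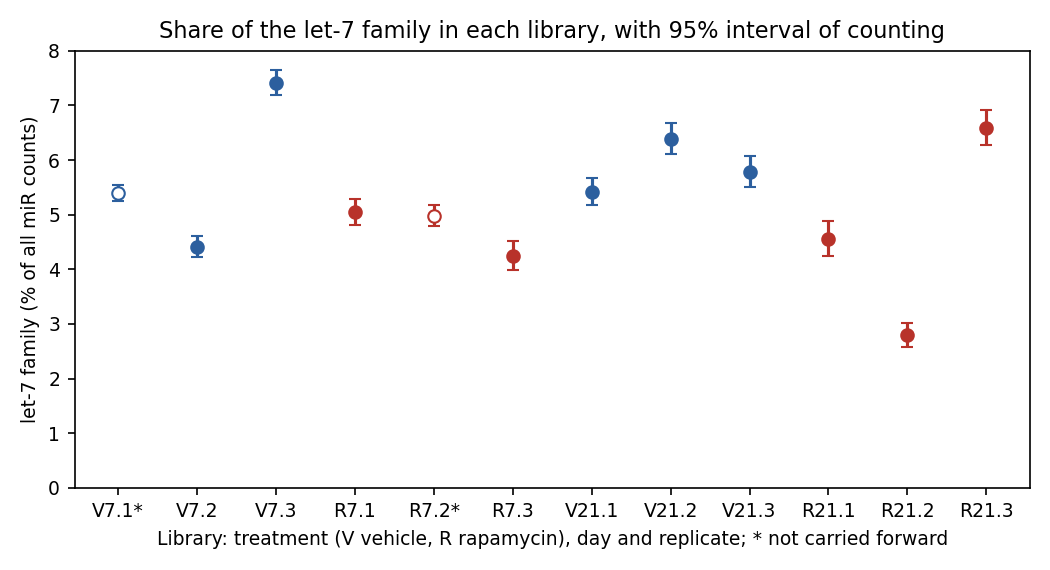
Share of the 9 members in all miR counts (%, y axis) in each of 12 libraries (x axis), with the 95% Wilson interval of the counting error. Blue marks vehicle and red rapamycin, and open points are the libraries not carried forward; the shares run from 2.79% to 7.42% and overlap between treatments.

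The intervals in the plot of family shares cover counting error only, since the reads carry no molecular identifiers and copies of 1 molecule count more than once. They are far narrower than the distance between animals of a group. At day 21, for example, the share was 2.79% (95% Wilson interval 2.58% to 3.01%) in rapamycin replicate 2 and 6.59% (6.28% to 6.91%) in replicate 3.

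Within the family the same pair dominated every animal. The most counted member was let-7i in all 12 libraries and the next was let-7f in all 12. Since all members have the same length, their levels can be set side by side, although the efficiency with which each sequence is ligated and amplified is not known. In the 10 libraries let-7i and let-7f together made up 75.8% to 89.9% of the family. By total count over the 10 libraries, let-7i ranked 8 and let-7f ranked 19 among all miRs, while let-7c ranked 48, miR-98 ranked 62 and let-7e ranked 167. The classic member let-7a ranked 91, and its counts ran from 7 to 87. Only let-7c, let-7f, let-7i and miR-98 had at least 10 counts in every library. A count of 0 was found for let-7d in replicate 3 of rapamycin day 7, which allows up to 0.316% of the family, and for let-7e in replicate 2 of vehicle day 21, which allows up to 0.164%.

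**Figure D2:**
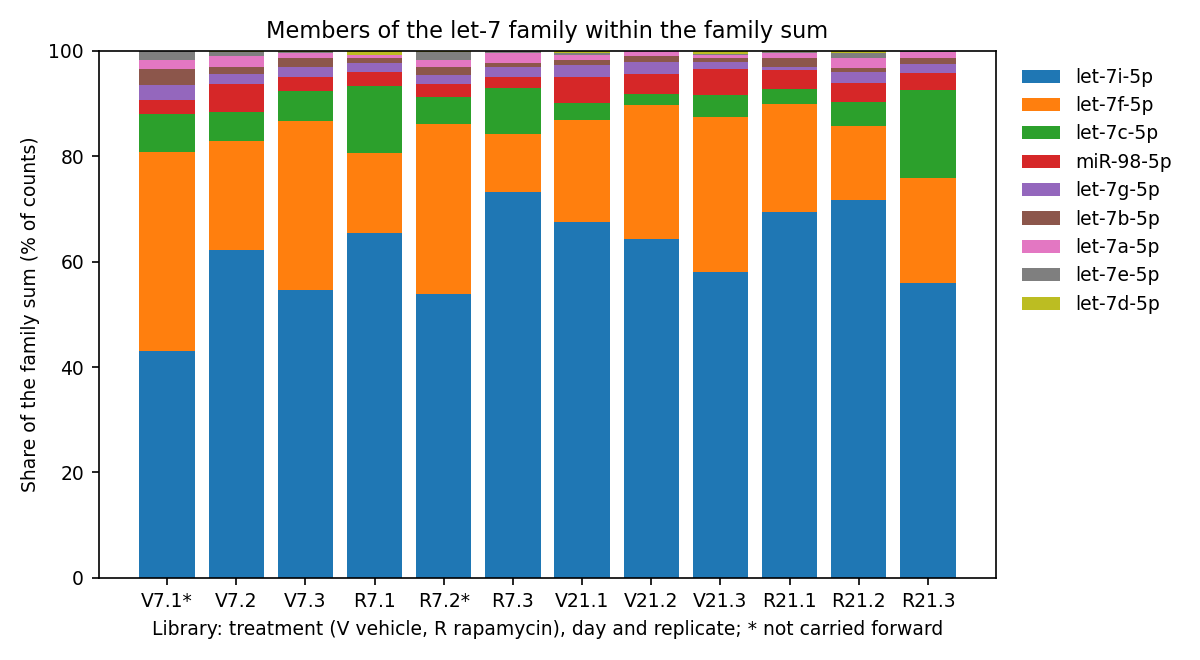
Share of each member in the family sum (%, y axis, stacked to 100) in each of 12 libraries (x axis). The band of let-7f is thinner in most rapamycin libraries, and that of let-7c is widest in rapamycin day 21 replicate 3, at 16.8%.

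In the make-up of the family, the mean share differed most between treatments for let-7f. It held 16.1% ± 4.04 (SD, n = 5) of the family with rapamycin and 25.3% ± 5.47 (SD, n = 5) with vehicle in the 10 libraries. With rapamycin its lowest and highest shares were 11.1% and 20.6%, and vehicle animals spanned 19.3% to 32.0%, so the groups overlapped between 19.3% and 20.6%. Over all 12 the overlap was wider, since let-7f held 32.1% and 37.7% of the family in the rapamycin and the vehicle library not carried forward. Per count of let-7i, let-7f stood at 0.246 ± 0.0811 (SD, n = 5) with rapamycin and 0.420 ± 0.124 (SD, n = 5) with vehicle. This ratio does not depend on library scaling. Over all 12 it was 0.304 ± 0.161 (SD, n = 6) and 0.496 ± 0.216 (SD, n = 6). The let-7i share was 67.1% ± 6.90 (SD, n = 5) with rapamycin and 61.4% ± 5.07 (SD, n = 5) with vehicle.

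Levels of single members are given as CPM, the depth-scaled count, here relative to the miR total of the library. For let-7f, rapamycin libraries at day 7 held 7652 and 4697 CPM, and 16002 CPM in the library not carried forward. Vehicle libraries at day 7 held 9051 and 23739.6 CPM, and 20358 CPM in the library not carried forward. Among the libraries carried forward both rapamycin values were the lower ones, and the added rapamycin library lay inside the vehicle range. At day 21, let-7f stood at 9371, 3871 and 13055 CPM with rapamycin and at 10459, 16273 and 16938 CPM with vehicle, with 1 rapamycin library inside the vehicle range.

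Over both days let-7f fell with rapamycin by 1.03 on the log2 scale (SE, the standard error, 0.25, adjusted p = 0.00192, edgeR quasi-likelihood test with Benjamini-Hochberg adjustment) in the 10 libraries. Over all 12 its log2 fold change was -0.98 (SE 0.33, edgeR adjusted p = 0.0446). That call rested on an abundance cutoff that left 26 of 426 miRs in the adjustment: over all 426 the edgeR adjusted p was 0.731, while in the 10 libraries it was 0.00636 over all 365. The call depended on 1 control library: without vehicle day 7 replicate 3 the log2 fold change was -0.74 (edgeR adjusted p = 0.325), and in the other 9 fits that left out 1 library let-7f was called. It was also not called with DESeq2 (adjusted p = 0.567), which called 0 of 364 miRs. Over 9 other settings let-7f was called in 5, with adjusted p from 0.000681 to 0.998 and a negative log2 fold change in all 9. With treatment labels permuted within day, the exact two-sided p of let-7f was 0.05 in the 10 libraries and 0.025 in all 12, with an adjusted p of 1 over all miRs in both.

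Across the family, 2 members passed the edgeR test over both days, let-7f lower and let-7c higher, among the 7 members above the abundance cutoff. This cutoff, set where most miRs were called, left low miRs out of the adjustment. The background was 4.55% of 110 miRs called, 2.73% higher and 1.82% lower. In all 12 libraries the cutoff left 2 members and 1 was called, let-7f, where the background was 7.69% of 26 miRs. The log2 fold change was negative in 8 of 9 members, let-7c being the exception, where 48.5% of all 365 miRs were negative. It was also negative in 8 of 9 members in all 12 libraries, where 57.0% of all miRs were, and with the calibrators as library size, where 62.5% were. With the replicate number as a block it was negative in 6 of 9, where 48.8% of all miRs were. The median was -0.47 over the 9 members and 0.03 over all miRs. In all 12 libraries these medians were -0.34 and -0.10. Scaling to the calibrators moved the median of all miRs to -0.27 and that of the members to -0.66.

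**Figure D3:**
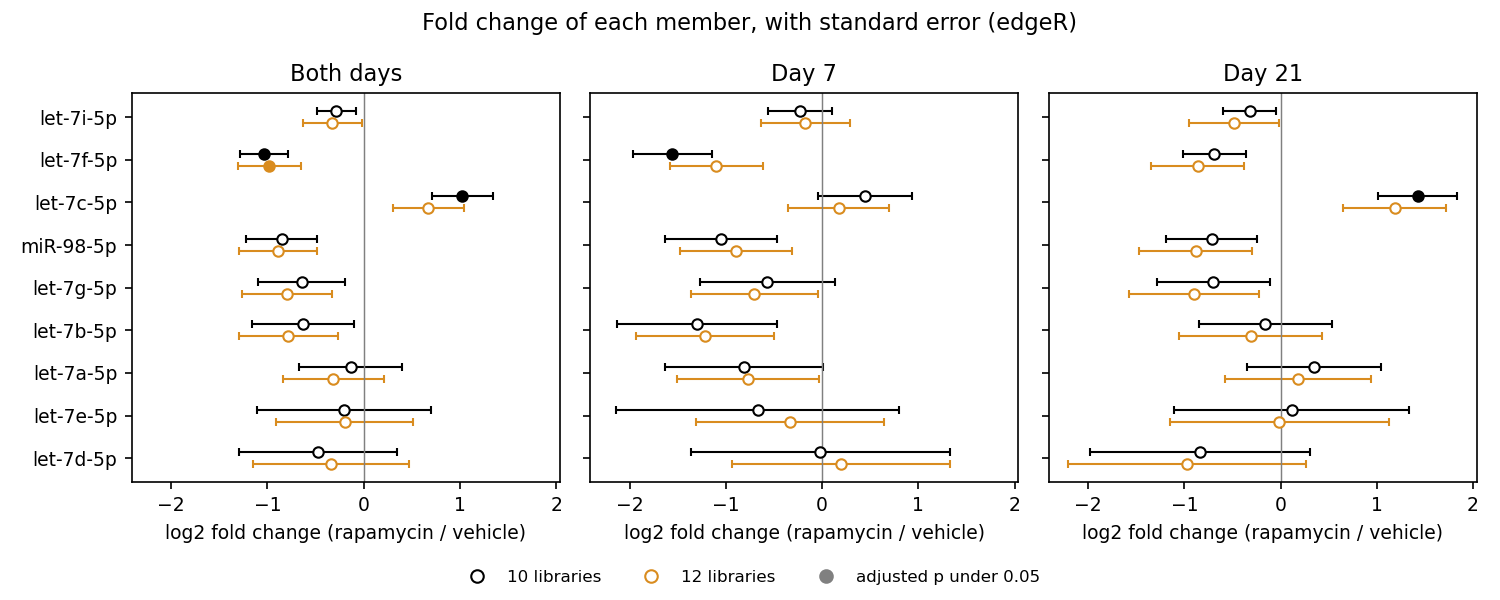
Log2 fold change of each member, rapamycin against vehicle, with its SE (x axis), over both days and at each day, for 10 libraries (black) and 12 (orange). Filled points have an adjusted p under 0.05: let-7f over both days in both sets and at day 7 in the 10, and let-7c over both days and at day 21 in the 10.

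A member without overlap between treatments at either day was miR-98, whose gene lies within 10 kb of let-7f-2. At day 7 it stood at 1352 and 849.9 CPM with rapamycin, with 1167 CPM in the library not carried forward. With vehicle at day 7 it stood at 2310.0 and 1887 CPM, with 1419 CPM in the library not carried forward. At day 21 it stood at 1654, 1012 and 2099 CPM with rapamycin and at 2677, 2404 and 2876 CPM with vehicle. At each day, then, every rapamycin library lay below every vehicle library, also among all 12.

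By edgeR the log2 fold change of miR-98 over both days was -0.85 (SE 0.37, adjusted p = 0.203) in the 10 libraries and -0.89 (SE 0.41) in all 12, where it lay below the abundance cutoff. It did not pass. Without rapamycin day 21 replicate 3 it did, with log2 fold change -1.13 (edgeR adjusted p = 0.0302). The exact permutation p of miR-98 was 0.0167 in the 10 libraries, the smallest that the 120 arrangements allow, and 0.01 in all 12, where the smallest is 0.005. Adjusted over all miRs these became 0.869 and 1. In the 10 libraries 2 members, miR-98 and let-7f, had an exact p at or under 0.05, as did 3.56% of all miRs, and in all 12 there were 3 with let-7g (exact p = 0.045), where 2.35% of all miRs did.

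**Figure D4:**
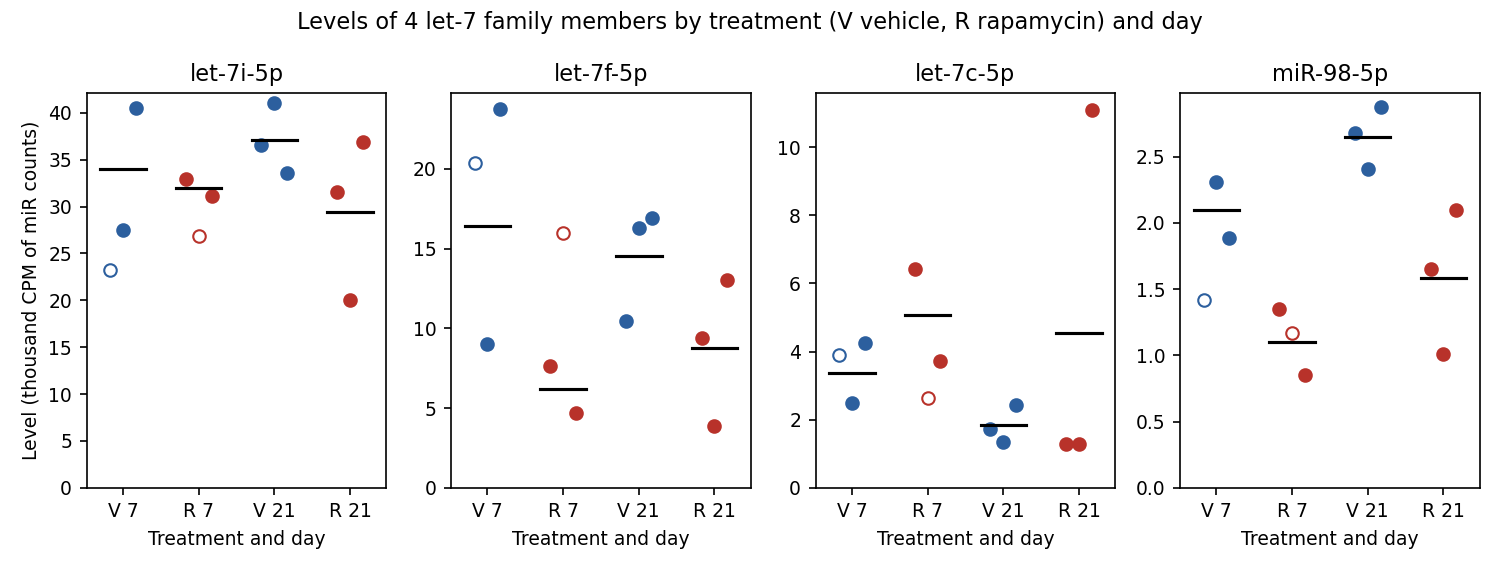
Levels of the 4 members with at least 10 counts in every library (CPM divided by 1000, y axis from 0, 1 scale per panel) by treatment and day (x axis), with 1 point per animal and a bar at the mean of the libraries carried forward; open points were not carried forward. For miR-98 the rapamycin points lie under the vehicle points at each day, and for let-7c 1 rapamycin library at day 21 reaches 11082 CPM.

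Absence of overlap was read against the 74 miRs that reached 10 counts in all libraries. At day 21, miR-98 was the 1 member lower in every rapamycin library, and 8.11% of the 74 were. At day 7 in the 10 libraries, with 2 against 2, let-7f and miR-98 were lower without overlap, 2 of the 4 members among the 74, and 24.3% of the 74 were. At day 7 in all 12, miR-98 was, 1 of those 4 members, and 2.7% of the 74 were. Outside the 74, on fewer counts, let-7a had no overlap in either set and let-7b had none in the 10. After TMM scaling (trimmed mean of M values, edgeR's library scaling) of all 12 only let-7b was, so the day 7 separation of miR-98 in all 12 depended on the scale.

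For let-7c the direction was the opposite, but it rested on 1 animal. At day 7 let-7c stood at 6422 and 3713 CPM with rapamycin, with 2625 CPM in the library not carried forward, and at 2499 and 4242 CPM with vehicle, with 3892 CPM in the library not carried forward. At day 21 it stood at 1286, 1276 and 11082 CPM with rapamycin and at 1712, 1359 and 2437 CPM with vehicle. The groups overlapped at both days, and rapamycin day 21 replicate 3 alone lay above all vehicle libraries of day 21.

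Over both days let-7c rose with rapamycin in the 10 libraries, with log2 fold change 1.03 (SE 0.31, edgeR adjusted p = 0.0408). In all 12 it was 0.67 (SE 0.37), below the cutoff. Without rapamycin day 21 replicate 3 the value was -0.15 (SE 0.33, edgeR adjusted p = 0.825). The call was lost as well without rapamycin day 7 replicate 1, rapamycin day 21 replicate 2, vehicle day 7 replicate 2, vehicle day 21 replicate 1 or vehicle day 21 replicate 2, with log2 fold changes from 0.86 to 1.20. Adjusted over all 365 miRs, without the cutoff, it was not called (edgeR adjusted p = 0.135). Over 9 other settings let-7c was called in 1, with adjusted p from 0.021 to 0.998. By exact permutation let-7c had p = 0.633, adjusted to 1 over all miRs. Rapamycin day 21 replicate 3 held the largest let-7c share of the family, 16.8%, and the largest red cell share of all 12, 18.8%. Replicate 1 of that group had a red cell share of 18.0% and a let-7c share of 2.83%. The part of red cell RNA in the let-7c value was not tested.

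The most abundant member, let-7i, overlapped between treatments and was not called. At day 7 it held 32973 and 31089 CPM with rapamycin, with 26813 in the library not carried forward, and 27484 and 40532 CPM with vehicle, with 23259 in the library not carried forward. At day 21 it held 31543, 20012 and 36857 CPM with rapamycin and 36544, 41015 and 33597 CPM with vehicle. The groups overlapped at both days, and the log2 fold change was -0.28 (SE 0.20, edgeR adjusted p = 0.459) in the 10 libraries and -0.33 (SE 0.31, edgeR adjusted p = 0.818) in all 12.

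Because reads may be shared between members 1 base apart, let-7a, let-7b, let-7c, let-7e and let-7f were also summed. Their sum stood at -0.52 ± 0.23 (SE) on the log2 scale over both days in the 10 libraries and at -0.48 ± 0.31 (SE) in all 12. At day 7 it was -0.99 ± 0.38 (SE) and at day 21 -0.21 ± 0.30 (SE) in the 10. The sum moved less than let-7f alone, with let-7c in it moving the other way. Any short reads shared with let-7g, let-7i or miR-98 lie outside this sum.

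The remaining members were counted too rarely for a firm statement. Over both days in the 10 libraries the log2 fold change was -0.65 (SE 0.45) for let-7g, -0.63 (SE 0.53) for let-7b and -0.13 (SE 0.53) for let-7a, with edgeR adjusted p from 0.448 to 0.908. Both let-7d (0 to 12 counts per library) and let-7e (0 to 82 counts) lay below the cutoff, with log2 fold changes of -0.47 (SE 0.83) and -0.20 (SE 0.90). Most of the let-7e counts came from the libraries not carried forward, with 38 in the rapamycin library and 82 in the vehicle library, against 12 or fewer elsewhere.

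Split by day, let-7f was the 1 member called at day 7 in the 10 libraries, with log2 fold change -1.56 (SE 0.41, edgeR adjusted p = 0.00201), where 10% of 30 miRs were called. The call was lost without vehicle day 7 replicate 3, with -0.63, and without rapamycin day 7 replicate 3, with -1.16. These fits left 1 library in an arm, whose spread was taken to be that of the other groups. Over all 12 the day 7 value was -1.10 (SE 0.48, edgeR adjusted p = 0.758), and 0 members were called, with 1 at an unadjusted p under 0.05 and a background of 0.935%. DESeq2 also called 0 members at day 7, and 0 of all 365 miRs.

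At day 21 let-7c was the 1 member called in the 10 libraries, with log2 fold change 1.43 (SE 0.41, edgeR adjusted p = 0.0499), against a background of 1.09%. Without rapamycin day 21 replicate 3 it turned to -0.67, and let-7f was then called in its place, with -1.23 (edgeR adjusted p = 0.0497). The let-7c call was kept only without rapamycin day 21 replicate 1, rapamycin day 21 replicate 2 or vehicle day 21 replicate 3. In all 12 libraries 0 members were called at day 21, with 1 at an unadjusted p under 0.05 and a background of 0.0%. With all animals, let-7f had a day 21 log2 fold change of -0.69 (SE 0.33, edgeR adjusted p = 0.652) in the 10 and -0.86 (SE 0.48, edgeR adjusted p = 1) in all 12.

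Whether the treatment difference itself changed between days was tested as an interaction, and 0 members passed in either set (edgeR, 0 at an unadjusted p under 0.05 in both), where 0.274% of miRs passed in the 10 and 0.34% in all 12. For let-7f the difference at day 21 minus that at day 7 was 0.87 (SE 0.52, edgeR adjusted p = 1.00) and for let-7c 0.98 (SE 0.63, edgeR adjusted p = 1.00). A call at day 7 or day 21 alone is therefore no test of a difference between the days.

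Day 21 was also compared with day 7 over both treatments. DESeq2 called 0 members and 0 of 364 miRs in the 10. By edgeR 0 members were called in the 10 libraries or in all 12 (0 at an unadjusted p under 0.05 in both). The edgeR backgrounds were 2.98% (all lower) and 9.05% (0.823% higher, 8.23% lower). In the 10 the log2 fold changes ran from -0.40 (SE 0.31) for let-7c to 0.51 (SE 0.38) for miR-98. Without rapamycin day 21 replicate 3, let-7c was called lower at day 21, with -1.34 (edgeR adjusted p = 0.00826). Scaling to the calibrators moved the median of all miRs from -0.05 to -0.50 and made all 9 members negative, and in all 12 libraries the median of all miRs was -0.54. Levels of let-7i relative to the miR total were 33019.7 ± 5502 CPM (SD, n = 4) at day 7 and 33261 ± 7245 CPM (SD, n = 6) at day 21.

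The genes of the family lie in several clusters, and the counts of neighbours were read beside them. In the GRCr8 annotation let-7a-1 lies within 10 kb of let-7d and the let-7f-1 locus, let-7b of let-7c-2, let-7e of Mir99b and Mir125a, let-7a-2 of Mir100, and let-7f-2 of Mir98 inside Huwe1. No other miR gene lies within 100 kb of let-7i or let-7g. Next to let-7c-1 is Mir99a, and Mir125b2 lies within 100 kb. Mir125b1 lies within 100 kb of let-7a-2. A mature miR made from 2 loci, as let-7a, let-7c, let-7f and miR-125b-5p are, cannot be assigned to one of them by its counts.

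Of 5 neighbour miRs, miR-99a passed the edgeR test over both days, with log2 fold change 0.83 (SE 0.27, adjusted p = 0.0498), beside 4.55% of all miRs called, and 4 of 5 were above 0. In all 12 libraries 0 of 5 were called (edgeR, 0 at an unadjusted p under 0.05) and 3 of 5 were above 0, with miR-99a at 0.53 (SE 0.33, edgeR adjusted p = 0.685). Their members of the family did not follow one pattern. On log2 CPM, let-7c rose and fell across libraries with miR-125b-5p (Pearson r = 0.90, Spearman rho = 0.92, n = 10; r = 0.78, n = 12), but not with miR-99a-5p, whose gene is nearer (r = -0.09, n = 10; r = -0.02, n = 12). In rapamycin day 21 replicate 3, where let-7c was highest, miR-125b-5p stood at 3484 CPM and miR-99a-5p at 1427 CPM, its lowest level but one. For other pairs the value depended on the set: let-7a and miR-100-5p had r = -0.65 (n = 10) and -0.11 (n = 12), let-7e and miR-99b-5p 0.12 (n = 10) and 0.58 (n = 12), and let-7e and miR-125a-5p 0.01 (n = 10) and 0.48 (n = 12). Points of these correlations share library and depth, and all are descriptions.

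**Figure D5:**
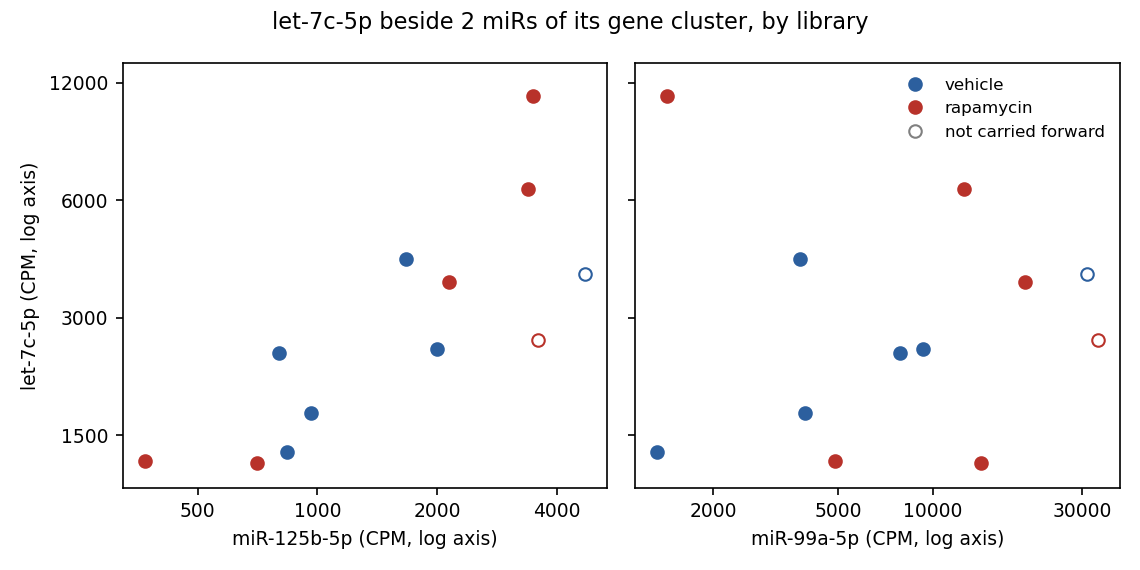
Level of let-7c-5p (CPM, log axis) against miR-125b-5p (left) and miR-99a-5p (right, CPM, log axes), with 1 point per library. Besides Mir125b2 near let-7c-1, miR-125b-5p has a gene near let-7a-2, Mir125b1. Blue marks vehicle, red rapamycin and open points the libraries not carried forward; the points rise together with miR-125b-5p (r = 0.90, n = 10) and show no trend with miR-99a-5p (r = -0.09, n = 10).

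Among the members themselves, let-7f varied most closely with let-7b (r = 0.83), let-7i (r = 0.81) and its cluster partner miR-98 (r = 0.79), each over 10 libraries. With let-7c it had r = 0.17, although the sequences differ at only 2 positions. Over all 12 libraries let-7f and let-7i had r = 0.44 and let-7f and miR-98 r = 0.55. Outside the family, the miRs most like the family sum among 70 candidates were miR-20a-5p (r = 0.84), miR-142-3p (r = 0.83) and miR-21-5p (r = 0.78) over 10 libraries, and over 12 these were 0.47, 0.41 and 0.49. Those most like let-7f were miR-142-3p (r = 0.80), miR-128-3p (r = 0.77) and miR-20a-5p (r = 0.76), and over 12 libraries each r was between -0.02 and 0.08. For let-7c, miR-93-5p (r = 0.55), miR-423-5p (r = 0.50) and miR-223-3p (r = 0.42) came first over 10 libraries, with 0.10, 0.37 and -0.01 over 12 and a Spearman rho of -0.04 for miR-93-5p over 10. All were below the r of miR-125b-5p, which did not have 10 counts in every library.

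One of these, miR-142-3p, marks leukocytes and platelets. The 4 miRs of that list (miR-142-3p, miR-142-5p, miR-223-3p and miR-150-5p) summed to 1.43% to 3.12% of miR counts with rapamycin and 2.15% to 3.75% with vehicle in the 10 libraries, and to 0.850% and 0.557% in the rapamycin and vehicle libraries not carried forward. None of the 4 was called over both days, and each log2 fold change was below 0, from -0.70 for miR-150-5p to -0.16 for miR-223-3p. At day 7, where let-7f was called, miR-150-5p, a lymphocyte miR, was called lower as well, with log2 fold change -2.09 (SE 0.47, edgeR adjusted p = 0.000233) in the 10 libraries and -1.83 (SE 0.52, edgeR adjusted p = 0.0492) in all 12. Its interaction with day was called in the 10 (2.28, SE 0.59, edgeR adjusted p = 0.0406) and not in all 12. The 4 red cell miRs summed to 12.9% to 18.8% with rapamycin and 10.4% to 16.6% with vehicle, with log2 fold changes from 0.01 to 0.40 and none called. The liver miRs miR-122 and miR-192 summed at day 7 in the 10 to 1.00% and 1.06% in rapamycin animals, against 0.368% and 0.354% in vehicle animals. Neither was called for treatment in the fits made here, whereas the authors' own fit called miR-122-5p higher with rapamycin at day 7. In the libraries not carried forward the liver miRs summed to 1.08% and 1.33%. Of the muscle miRs, miR-133a-3p was called higher with rapamycin over both days in the 10 (2.01, SE 0.64, edgeR adjusted p = 0.0423). There 1 of the 2 muscle miRs with a count was above 0. In all 12 libraries none was called and 0 of 3 were above 0, miR-133a-3p among them. What part these cells and tissues have in the let-7f, miR-98 and let-7c values was not tested.

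The 3p arms were mostly rare beside the 5p arms. For let-7i, 1 read of the 3p arm stood beside 10057 of the 5p arm in the 10 libraries, and miR-98 had 6 beside 585. The 3p share of let-7e was 9.52% (95% Wilson interval 3.77% to 22.1%) on 4 counts, and 4.82% in all 12 libraries. For let-7a-1-3p it was 14.2% (10.2% to 19.4%) on 31 counts, and 20.5% in all 12, but the same counts stand under let-7c-2-3p, where they are 2.78% of that pair. By contrast let-7d-3p had 80 counts and let-7d-5p 53, a 3p share of 60.2% (95% Wilson interval 51.7% to 68.1%), and in all 12 libraries the share was 57.3% (49.5% to 64.8%). These intervals treat the pooled reads as 1 sample: the 3p arm exceeded the 5p arm in 5 of 10 libraries, by most in replicate 2 of vehicle day 21 (19 against 2 counts) and replicate 3 of vehicle day 7 (24 against 12). For let-7d-3p, day 7 gave 7 and 1 counts with rapamycin, 5 and 24 with vehicle, and 5 in each library not carried forward. Day 21 gave 1, 1 and 7 counts with rapamycin, against 11, 19 and 4 in vehicle animals. Treated and control animals overlapped at both days. Of 12 listed 3p arms, 8 were in the count table. Over both days 0 of these 8 were called (edgeR, 0 at an unadjusted p under 0.05), where 4.55% of 110 miRs were. With at most 24 counts in any of the 10 libraries, they could hardly be called, so this says little about the 3p arms.

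The names let-7a-1-3p and let-7c-2-3p have 1 sequence, printed to show it.
let-7a-1-3p: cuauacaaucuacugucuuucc
let-7c-2-3p: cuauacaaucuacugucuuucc
Their counts were identical in 12 of 12 libraries, 31 in sum over the 10, so both names carry the same reads or an equal split of them. For comparison, let-7d-3p is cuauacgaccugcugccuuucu.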

How the data were processed

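The authors deposited raw counts of reads per mature rat miR for 12 libraries, with 10 synthetic spike-in rows. Per the study's methods, serum EV RNA was sequenced with 100-base reads, trimmed with cutadapt 3.3 (17 nucleotides or longer) and mapped with Bowtie 1.3.0 to mRatBN7.2 (2 mismatches), then to rat miRBase (1 mismatch). How reads matching several names were divided is not given in the sources used here. From these counts, edgeR 4.0.16 (R 4.3.3) fitted quasi-likelihood models with TMM scaling to miRs with at least 1 count, spike-ins excluded. Treatment was tested with day as a block, and within days, the day effect and the interaction in related models, over the 10 libraries carried forward, with all 12 as an alternative. The abundance quantile from 0 to 0.95 (step 0.01) that gave most calls set a cutoff before Benjamini-Hochberg adjustment, and a miR was called at an adjusted p under 0.05. This choice favours calls. Single members were also tested by exact permutation of treatment within day (log2 CPM, prior count 2). Correlations used log2 CPM with 0.5 added to each count. DESeq2 1.42.0, other scalings, filters, a replicate block and leaving out each library were alternatives. Scripts were tested on simulated data. Animals are the replicates, and same-numbered animals share only a number. All 9 members were named in the text. Other miRs named were 3p arms, gene neighbours, cell markers and the 3 miRs most correlated with the family sum, let-7f and let-7c. Members and lists were chosen with earlier results of these data known. RefSeq sequences and gene positions are from GRCr8, and 385 of 426 miRs matched by name. No coordinates are given, since builds differ.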

Additional observations from a re-analysis of the deposited data

Results flagged for a closer look

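Among 40 groups of 5 or 6 libraries (each member and the family sum, by treatment, in the 10 and in all 12 libraries), 2 held a library far from the rest by Dixon's criterion. It marks about 1 in 20 independent groups, but these groups share libraries, so that rate cannot be applied to them. Both concern let-7e-5p and the libraries not carried forward. Rapamycin day 7 replicate 2 held 739 CPM, against 30.7 to 264 CPM in the other 5 rapamycin libraries. Vehicle day 7 replicate 1 held 856 CPM, against 0 to 283 CPM in the other 5 vehicle libraries. These libraries also had the most miR counts per calibrator count, 5.53 and 12.8, and a part of that in the let-7e level was not tested.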

How the results depend on the processing

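The number of members called over both days was 2 in the 10 libraries (5 of 110 miRs called) and 2 with RLE scaling (6 of 73). It was 1 in all 12 (2 of 26 miRs called), without a cutoff (2 of 365), with calibrators as library size (6 of 33) and with the replicate block (2 of 55). It was 0 with filterByExpr, with 10 counts in every library, with DESeq2 and with the block over all 12. Those settings called 0 of 135, 75, 364 and 426 miRs, so the loss was not particular to the members. At day 7 the 1 call became 0 in all 12, where 1 of 107 miRs was called. It also became 0 with filterByExpr, 10 counts in every library, DESeq2 and the block in either set, where 0 miRs were called. It stayed 1 without a cutoff (2 of 365 miRs called), with RLE scaling (5 of 84), with calibrators (2 of 33) and with only the libraries of that day (16 of 47). At day 21 the 1 call became 0 under each of the 10 other settings that did not leave out a library. These called 0 miRs, except 1 of 19 with RLE scaling and 1 of 41 with calibrators. With 1 library left out, 1 to 2 members were called over both days, beside shares from 2 of 359 to 6 of 26 miRs. Between days it was 0 to 1, beside 2 of 359 to 8 of 159. With 1 day 21 library left out, 1 member was called at day 7, beside 2 of 364 to 4 of 36 miRs. At day 21 it was then 0 to 1, beside 0 of 361 to 2 of 47. The interaction then called 0, beside 0 of 364 to 10 of 134. Leaving out a day 7 library left 1 animal in a group, where the day 7 call could be lost, as given above. Adding only 1 of the libraries not carried forward was an alternative chosen after seeing the data. With the vehicle library added, 1 member was called over both days (1 of 54 miRs) and 1 at day 7 (1 of 29). With the rapamycin library added, 1 was called over both days (6 of 36 miRs) and 0 at day 7 (7 of 119). At day 21 either gave 0, with 0 of 409 and 0 of 397 miRs called. All 12 without a cutoff, also chosen after seeing the data, gave 0 calls in each comparison, with 0 of 426 miRs called at day 21. The causes were not tested.

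Of 226 member fold changes under these other settings, 188 kept direction and side of the threshold, 28 lost the call and 10 reversed. Most of the 226 belong to results that were not called in the main fit, so the 188 say little about the calls. The let-7f call was kept in 5 of 9 settings over both days and in 4 of 10 at day 7. The let-7c call was kept in 1 of 9 over both days and in 0 of 10 at day 21. With the replicate block, let-7a became 0.15 and let-7e 1.17 over both days (0.19 in all 12), let-7c -0.36 at day 7, and the interaction 0.17 for let-7i and, in all 12, -0.080 for miR-98. For day 21 against day 7, let-7f became -0.025 in all 12, and calibrators gave -0.32 for let-7f, -0.42 for let-7i and -0.021 for miR-98. Same-numbered animals were not paired by the design, and their deviations from group means correlated from -0.48 to -0.02 in the 10 and from -0.78 to 0.31 in all 12. With 1 library left out, the lowest and highest values over both days were -0.52 and 0.086 for let-7a, -0.15 and 1.23 for let-7c and -0.68 and 0.53 for let-7e. At day 7 they were -0.44 and 0.13 for let-7i, and at day 21 -0.67 and 1.88 for let-7c. Between days they were -0.018 and 0.61 for let-7f and -0.088 and 0.17 for let-7i. For the interaction they were -1.04 and 1.43 for let-7c, -0.15 and 1.25 for let-7f, -0.54 and 0.037 for let-7i and -0.11 and 0.63 for miR-98. Adding only the rapamycin library not carried forward turned let-7e to 0.49 over both days, let-7f to -0.0022 between days and the let-7i interaction to 0.074. The family share with vehicle was 7.01% without the most abundant miR in the total. The rapamycin and vehicle shares given above rest on another total, so they cannot be set against this value. Members lower without overlap at day 7 numbered 4 in the 10 libraries. Of these, 2 were among the 74 miRs with 10 counts in every library, and 24.3% of the 74 were lower. In all 12 they numbered 2, with 1 among the 74, and 2.7% of the 74 were lower. After TMM of all 12 there was 1, outside the 74, and 1 of the 74 was lower. Both alternatives were chosen after seeing the data. At these counts let-7d and let-7e cannot be compared.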
